A study of Mus musculus with 7 samples.

Results

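The 10 genes described here mark neutrophils, the short-lived granulocytes of blood: the calprotectin genes S100a8 and S100a9, the granule protein genes Mpo, Elane, Ngp, Camp and Lcn2, the secreted resistin-like gene Retnlg, and the surface genes Csf3r and Ly6g. They were chosen by name, and all 10 were found among the 55487 genes of the deposited count table. The RNA came from the inguinal white fat depot, which lies under the skin of the groin, of mice of the NOD/ShiLtJ strain, which develops autoimmune diabetes. Every mouse had a blood glucose of 190 to 230 mg/dL when it was injected under the skin for 7 days, and tissue was taken 2 to 8 weeks afterwards. In 3 libraries, called sham, the mice had received KRBH buffer. In 4 libraries, called imBAT, they had received at 1.5 mg/kg body weight the part above 100 kDa of a buffer conditioned by brown adipocytes. No label ties a library to a single animal, so the p-values cover only library-to-library spread, which may be technical, and age is not given.

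Neutrophils mature in bone marrow and fill their granules in a fixed order. The primary granules, with myeloperoxidase and neutrophil elastase, are made first, and the specific granules, with cathelicidin, lipocalin 2 and the neutrophilic granule protein, follow. S100a8 and S100a9 proteins form calprotectin, the most abundant cytosolic protein of the mature cell, and its mRNA is among the highest in circulating neutrophils. Several of these genes are not confined to neutrophils: Lcn2 is also made by adipocytes and epithelia, Camp by adipocyte precursors, and Csf3r by monocytes and macrophages. In bulk tissue, fewer cells of a type and less RNA per cell cannot be told apart.

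Library totals ran from 41025786 to 63650016 counts. Levels are CPM, counts scaled to a common library size after TMM, edgeR's correction for composition. Differences were tested with edgeR's quasi-likelihood test with Benjamini-Hochberg adjustment over 26393 genes, and "rose" or "fell" is used for an adjusted p below 0.05. By that rule 24.3% of all genes tested were higher and 19.3% lower in imBAT (6407 and 5084 genes), a split that became 4722 higher and 8180 lower with upper-quartile scaling, where the all-gene median (log2) went from -0.01 to -0.25. Markers of whole cell classes differed widely between the groups: Ptprc, the pan-leukocyte antigen CD45, fell 3.03-fold, with 1392 ± 72.4 CPM in sham (SD, n = 3) and 458.8 ± 144.2 CPM in imBAT (n = 4). Adipoq, the adipocyte hormone adiponectin, went the other way, with 136.6 ± 54.6 CPM in sham and 1171 ± 444.0 CPM in imBAT.

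Of the 10 genes, 9 passed the filter on low counts and 2 rose, Lcn2 and Csf3r, while none fell; no log2 fold change was below 0 by edgeR, by voom or, for the 8 with an adjusted p, by DESeq2. Set against the 24.3% of all genes that rose, 2 of 9 is close to the background. All 9 log2 fold changes were above 0, with a median of 2.43 against -0.01 over all genes. The same 9 genes were tested when any single library was left out. Retnlg, however, had 9, 4 and 3 counts in sham, each under the filter's minimum count of 10. It passed the filter only through its imBAT libraries, so its positive value is not separate support. The median is a description only. The values followed 3 different patterns over the libraries. Lcn2 was high in every imBAT library, Csf3r in 3 of 4, and S100a8, S100a9, Ngp, Camp, Retnlg and Ly6g stood highest in imBAT replicate 4.

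**Figure D1:**
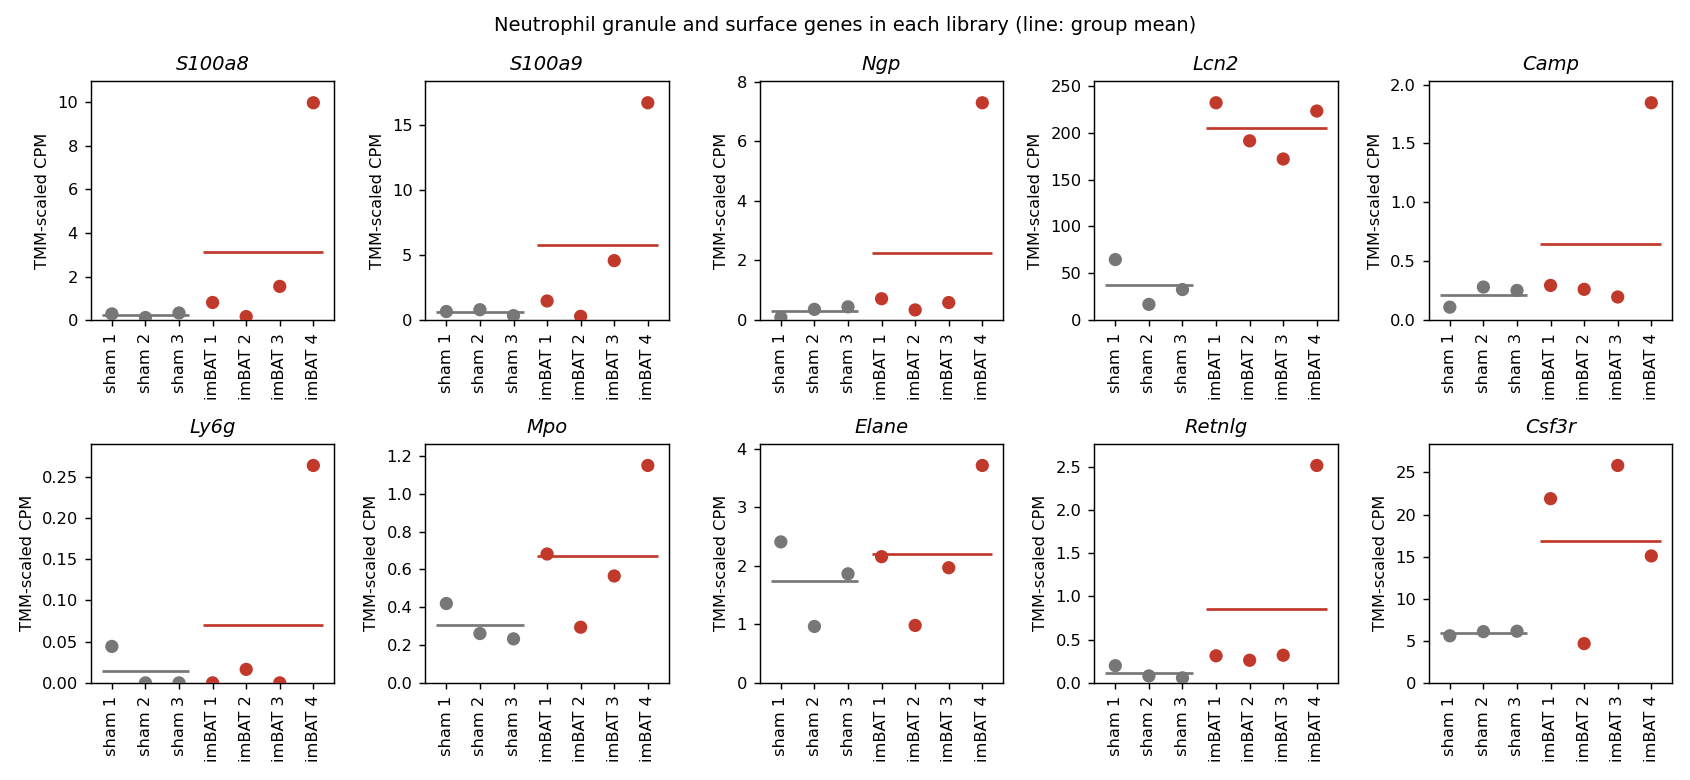
TMM-scaled CPM (linear axis from 0, scaled to each gene) of the 10 genes in the 3 sham libraries (grey) and the 4 imBAT libraries (red), with a line at each group mean. Lcn2 lies above all sham libraries in each imBAT library, Csf3r does so in 3, and S100a8, Ngp, Camp, Ly6g and Retnlg have a single high point in imBAT replicate 4.

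The calprotectin genes lie side by side on mouse chromosome 3 (GRCm38), S100a8 at 90668978 to 90670035 on the plus strand and S100a9 at 90692632 to 90695721 on the minus strand, with no annotated gene in the 22596 bases between them. S100a8 stood at 0.287, 0.121 and 0.33 CPM in sham replicates 1 to 3 and at 0.811, 0.164, 1.55 and 9.97 CPM in imBAT replicates 1 to 4. These are 6 to 17 counts per sham library and 44, 10, 63 and 416 counts in imBAT. The groups overlapped, because imBAT replicate 2 lay within the sham range, and imBAT replicate 4 was 6.44 times the next highest library. S100a9 stood at 0.663, 0.803 and 0.349 CPM in sham and at 1.47, 0.294, 4.57 and 16.7 CPM in imBAT. It followed the same order of imBAT libraries as S100a8, with replicate 4 first, replicate 3 second and replicate 2 below every sham library. The log2 fold change was 3.64 ± 1.31 (SE) for S100a8 and 3.24 ± 1.19 for S100a9, and neither passed the edgeR test (adjusted p = 0.0507 and 0.0549).

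The same genes were tested without each library in turn. Replicates 4 and 2 of imBAT are given first because of their values. Without imBAT replicate 4 the log2 fold changes were 1.74 ± 0.79 and 1.79 ± 0.86 (edgeR adjusted p = 0.112 and 0.132). Without imBAT replicate 2 they were 4.06 ± 1.04 and 3.65 ± 0.88 and both rose (edgeR adjusted p = 0.0175 and 0.0142). Both also rose when imBAT replicate 1 was left out (edgeR adjusted p = 0.0489 and 0.0497). Neither passed without imBAT replicate 3 (edgeR adjusted p = 0.0874 and 0.109) or without any single sham library (0.112 to 0.156).

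The specific granule genes Ngp and Camp lie on chromosome 9, 570129 bases and 22 annotated genes apart, Ngp at 110419747 to 110423012 and Camp at 109847379 to 109849617. Ngp, which encodes a cystatin-like granule protein, stood at 0.0884, 0.362 and 0.446 CPM in sham and at 0.719, 0.343, 0.59 and 7.29 CPM in imBAT. Its counts were 4, 18 and 23 in sham and 39, 21, 24 and 304 in imBAT. Only imBAT replicate 4 stood well apart from the sham libraries, at 10.1 times the next highest library. Camp, the gene of the antimicrobial peptide cathelicidin, stood at 0.111, 0.281 and 0.252 CPM in sham and at 0.295, 0.262, 0.197 and 1.85 CPM in imBAT. Here imBAT replicates 1 to 3 averaged 0.251 ± 0.050 CPM (SD, n = 3) beside 0.215 ± 0.091 CPM in sham (n = 3), and replicate 4 was 6.26 times the next highest library. The log2 fold change of Ngp was 2.86 ± 1.19 and that of Camp 1.56 ± 0.88, neither past the edgeR test (adjusted p = 0.0807 and 0.179). Without imBAT replicate 4 they were 0.86 ± 0.59 and 0.23 ± 0.50 (edgeR adjusted p = 0.271 and 0.738), and without imBAT replicate 2 Ngp rose by 3.24 ± 1.11 (edgeR adjusted p = 0.0483).

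Retnlg, the resistin-like gene of mouse neutrophils on chromosome 16 at 48872621 to 48874496, stood at 0.199, 0.0803 and 0.0582 CPM in sham and at 0.313, 0.262, 0.32 and 2.52 CPM in imBAT. All 4 imBAT libraries lay above all 3 sham libraries, though on few counts, 9, 4 and 3 in sham replicates 1 to 3 and 17, 16 and 13 in imBAT replicates 1 to 3, and replicate 4, with 105 counts, was 7.87 times the next highest. The log2 fold change of 2.90 ± 1.04 missed the edgeR threshold (adjusted p = 0.0505), and was 1.41 ± 0.57 without imBAT replicate 4 (adjusted p = 0.081) and 3.22 ± 1.02 without imBAT replicate 2 (adjusted p = 0.0372). Retnlg and Lcn2 were the 2 of 9 tested genes whose groups did not overlap with imBAT higher, beside 26.8% of all genes tested. None was lower without overlap, beside 25.2%. Since Retnlg passed the filter only through its imBAT counts, its place among the 2 is a description and no support.

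Ly6g, the surface antigen used to sort mouse neutrophils (chromosome 15, 75155240 to 75159126), was too low to test. It had 2, 0 and 0 counts in sham and 0, 1, 0 and 11 counts in imBAT. A count of 0 allows a level of up to 3 counts, which is 0.0553 to 0.0738 CPM in the 4 libraries without a count, so only the 0.264 CPM of imBAT replicate 4 lay clear of that limit. Such limits cover counting error only.

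The promoters of the 5 tested genes that stood highest in imBAT replicate 4 by at least 3 times are shown because that high library is what these genes were picked for; their values in the other libraries differ. Each sequence holds the 250 bases before the RefSeq start (GRCm38.p6), 5′ to 3′ on the gene's strand: S100a8 at chr3:90668821-90669070 (plus strand), S100a9 at chr3:90695722-90695971 (minus strand), Ngp at chr9:110419558-110419807 (plus strand), Camp at chr9:109849457-109849706 (minus strand) and Retnlg at chr16:48872358-48872607 (plus strand). Capitals mark matches on either strand to TTNNGNAA, a loose form of the site of C/EBP factors, or to GAGGAA, a core of the site of the myeloid factor PU.1; both factor families act in granulocyte maturation.
S100a8: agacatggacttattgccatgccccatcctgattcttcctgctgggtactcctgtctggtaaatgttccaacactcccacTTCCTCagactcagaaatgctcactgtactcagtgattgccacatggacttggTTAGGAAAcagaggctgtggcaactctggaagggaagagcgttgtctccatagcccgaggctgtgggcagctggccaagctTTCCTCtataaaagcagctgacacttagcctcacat
S100a9: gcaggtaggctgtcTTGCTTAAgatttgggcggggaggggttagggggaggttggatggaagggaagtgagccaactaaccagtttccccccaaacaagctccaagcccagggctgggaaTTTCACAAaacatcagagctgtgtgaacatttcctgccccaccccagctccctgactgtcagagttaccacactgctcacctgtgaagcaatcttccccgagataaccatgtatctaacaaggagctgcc
Ngp: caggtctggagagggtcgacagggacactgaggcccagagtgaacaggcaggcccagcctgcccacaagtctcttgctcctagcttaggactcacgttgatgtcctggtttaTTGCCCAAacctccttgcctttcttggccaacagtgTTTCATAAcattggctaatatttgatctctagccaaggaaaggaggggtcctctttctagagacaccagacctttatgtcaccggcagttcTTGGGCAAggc
Camp: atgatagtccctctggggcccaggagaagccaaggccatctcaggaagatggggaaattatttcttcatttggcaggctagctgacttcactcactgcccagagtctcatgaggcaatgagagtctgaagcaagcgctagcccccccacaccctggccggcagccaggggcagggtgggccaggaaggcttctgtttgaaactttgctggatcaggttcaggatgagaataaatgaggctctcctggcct
Retnlg: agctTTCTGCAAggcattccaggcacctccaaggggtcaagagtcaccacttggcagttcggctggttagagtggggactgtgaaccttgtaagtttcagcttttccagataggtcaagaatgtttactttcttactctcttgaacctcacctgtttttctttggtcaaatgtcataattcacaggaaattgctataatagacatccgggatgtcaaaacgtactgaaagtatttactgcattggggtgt
TTNNGNAA was present in 4 of these 5 windows, with 3 matches in Ngp, 2 in S100a9, 1 each in S100a8 and Retnlg, and none in Camp. The share over all 32851 RefSeq promoter windows of the same length was 36.8%. GAGGAA was present in S100a8 alone, with 2 matches, beside 23.3% of all windows. Over the 10 genes, 6 had at least 1 match to the first motif and 6 to the second. A match is a run of letters and was not tested as a binding site.

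Mpo and Elane, the genes of the primary granule enzymes myeloperoxidase and neutrophil elastase, varied less. Mpo (chromosome 11, 87793581 to 87804413) stood at 0.42, 0.261 and 0.233 CPM in sham and at 0.682, 0.294, 0.566 and 1.15 CPM in imBAT, with 12 to 48 counts per library. The groups overlapped through imBAT replicate 2, and the log2 fold change was 1.13 ± 0.51 (edgeR adjusted p = 0.10). An antisense gene, Gm11505, overlaps Mpo, and since the strand setting of the counting is not given in the sources used here, their reads may not be told apart. Without imBAT replicate 2 Mpo rose by 1.40 ± 0.44 (edgeR adjusted p = 0.0351), and without imBAT replicate 4 its value was 0.75 ± 0.47 (adjusted p = 0.231). Elane (chromosome 10, 79886247 to 79888215) stood at 2.41, 0.964 and 1.86 CPM in sham and at 2.16, 0.981, 1.97 and 3.72 CPM in imBAT. The sham range held 3 of the 4 imBAT libraries, and the log2 fold change of 0.33 ± 0.46 (edgeR adjusted p = 0.583) became -0.04 ± 0.42 without imBAT replicate 4. For both enzymes imBAT replicate 4 was again the highest library, by 1.69 and 1.54 times over the next.

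Lcn2, which encodes the siderophore-binding lipocalin 2 (chromosome 2, 32384633 to 32388252), was by far the most abundant of the 10. It stood at 64.7, 16.9 and 32.7 CPM in sham and at 232.1, 191.4, 172.0 and 223.2 CPM in imBAT. Every imBAT library lay above every sham library, and imBAT replicate 4 did not stand apart. Lcn2 rose 5.38-fold (log2 fold change 2.43 ± 0.40, edgeR adjusted p = 0.00286). The log2 fold change was 2.39 ± 0.44 without imBAT replicate 4 (adjusted p = 0.00704) and 3.05 without sham replicate 1, the highest sham library (adjusted p = 0.00179). White adipocyte and mammary epithelium markers moved beside Lcn2, where 24.3% of all genes tested rose. All 10 tested markers of the white adipocyte list rose, with summed levels of 1157 to 2030 CPM in sham and 9489 to 18146 CPM in imBAT, and 8 of 9 tested markers of mammary epithelium rose, with sums of 102.6 to 363.4 and 678.6 to 1342 CPM. Sham replicate 1, highest for Lcn2 among sham libraries, also held the highest sum of both lists in that group. For white adipocytes its lead was small, 2030 CPM beside 2000 CPM in sham replicate 3. Over the sham libraries both sums had the order of Lcn2, the mammary sum at 363.4, 102.6 and 197.0 CPM in replicates 1 to 3. Within imBAT the full orders differed. There the white adipocyte sum was highest in replicate 3 (18146 CPM), which had the lowest Lcn2. The mammary sum was highest in replicate 2 (1342 CPM), and Lcn2 in replicate 1. Both the mammary sum (678.6 CPM) and Lcn2 were lowest in replicate 3. The part of these cells in the Lcn2 result was not tested.

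Csf3r, the receptor for granulocyte colony-stimulating factor (chromosome 4, 126024550 to 126044440), stood at 5.59, 6.09 and 6.13 CPM in sham and at 21.9, 4.66, 25.8 and 15.1 CPM in imBAT. The sham libraries were close together, imBAT replicates 1, 3 and 4 lay above all of them, and imBAT replicate 2 was below all of them. Csf3r rose 2.84-fold (log2 fold change 1.50 ± 0.49, edgeR adjusted p = 0.0357). The call was lost without any single library other than imBAT replicate 2 (edgeR adjusted p = 0.0534 to 0.109) with upper-quartile scaling (log2 fold change 1.25, adjusted p = 0.0555) and with no expression filter (adjusted p = 0.117), while without imBAT replicate 2 the log2 fold change was 1.82 ± 0.21 (adjusted p = 0.00109). Some macrophage and monocyte markers moved beside Csf3r. Of 10 macrophage markers 6 rose and 1 fell, beside 24.3% and 19.3% of all genes tested. Of 7 monocyte markers 4 rose, namely Ly6c2, Vcan, Fn1 and F13a1. The monocyte markers Ccr2, Plac8 and Chil3 did not pass, with log2 fold changes of -0.10, 0.72 and -0.003 (edgeR adjusted p = 0.763, 0.174 and 0.998). With no expression filter the complement genes C1qa, C1qb and C1qc were not called (edgeR adjusted p = 0.0671, 0.0884 and 0.0971), and C1qb and C1qc were also lost without sham replicate 2, sham replicate 3 or imBAT replicate 3. Adgre1, which encodes the macrophage antigen F4/80, stood at 10.0 to 14.2 CPM in sham, at 232.4, 175.3 and 124.3 CPM in imBAT replicates 1, 3 and 4, and at 20.3 CPM in imBAT replicate 2. The summed macrophage list ran from 1196 to 1335 CPM in sham and from 893.7 to 2610 CPM in imBAT, and that of monocytes from 241.6 to 307.5 and from 640.8 to 1881 CPM. The part of these cells in the Csf3r result was not tested.

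Counted without 1 library, the number of the 10 genes that rose changed more than that of all genes. Without imBAT replicate 4 only Lcn2 rose, beside 22.9% of all genes in that comparison. Without imBAT replicate 2 there were 7 that rose (all tested members but Camp and Elane), beside 24.8% of all genes. No member fell in either comparison.

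**Figure D2:**
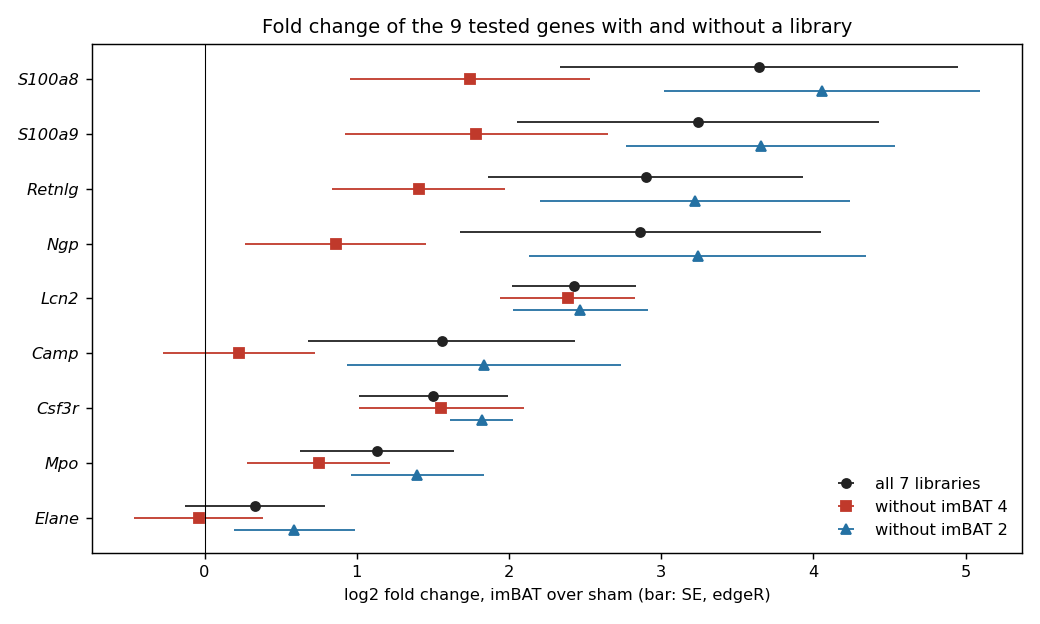
Log2 fold change of imBAT over sham with its standard error (bars, edgeR) for the 9 tested genes, from all 7 libraries (black circles), without imBAT replicate 4 (red squares) and without imBAT replicate 2 (blue triangles). S100a8 goes from 3.64 to 1.74 and Ngp from 2.86 to 0.86 without replicate 4, while Lcn2 stays between 2.39 and 2.47.

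Per kilobase of exon, the scale on which genes can be compared, Lcn2 was first in both groups, at 14.5 ± 9.3 CPM per kilobase in sham (SD, n = 3) and 78.0 ± 10.6 in imBAT (n = 4). Elane (1.77 ± 0.74), Csf3r (1.65 ± 0.08) and S100a9 (1.16 ± 0.45) came next in sham. Elane, at 0.980 to 2.45 over the sham libraries, overlapped both of the others, while every Csf3r value (1.55 to 1.70) lay just above every S100a9 value (0.669 to 1.54). S100a8 (0.354 ± 0.160), Camp (0.283 ± 0.121), Ngp (0.245 ± 0.153) and Retnlg (0.190 ± 0.128) followed with overlapping spreads, then Mpo (0.0890 ± 0.0294) and Ly6g (0.0156 ± 0.0271). In imBAT replicate 4 alone the order after Lcn2 (85.1 CPM per kilobase) was S100a9 (32.0), S100a8 (14.4), Ngp (5.96), Retnlg (4.24), Csf3r (4.18), Elane (3.78), Camp (2.43), Mpo (0.336) and Ly6g (0.280). On this scale S100a8 lay below Elane in each sham library and in imBAT replicates 1 and 2, and above it in imBAT replicates 3 (2.23 against 2.00) and 4.

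Among tested genes with at least 1 CPM in imBAT replicate 4, 22 of 19549 (0.113%) stood there at least 3 times above the highest other library. The 22 included 5 of the 10 genes, with Ngp, Retnlg, S100a8 and Camp among the first 5 by that ratio and S100a9 further down. No member stood out in this way in any other library, where 1 to 44 genes did. The threshold of 3 was chosen after the values were seen. Other genes of the 22 were the immediate early genes Fosb (3.27 to 17.2 CPM elsewhere, 74.4 CPM in imBAT replicate 4) and Fos (9.56 to 65.0 and 210.9 CPM), and several immunoglobulin segments. The part of these differences in the neutrophil values was not tested.

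The genes most alike in pattern were sought by the root-mean-square difference of centred log2 CPM over the 7 libraries, among genes of at least 1 CPM on average. For Csf3r they were Ms4a7, Il1r2 and C1qc, each at 0.21 log2 units. Ms4a7 and C1qc are macrophage genes, and Il1r2 encodes the decoy receptor of interleukin 1. Il1r2 also belongs to the list of neutrophil surface and receptor partners read below, and it rose (log2 fold change 1.72, edgeR adjusted p = 0.0216). That call was lost without any single sham library or imBAT replicate 3, and with no expression filter. For Lcn2 they were Ldb3, Hebp2 and Egflam (0.18, 0.20 and 0.22). For Ngp they were Fosb, Klhl31 and Fos (0.61, 0.84 and 0.90), and for Camp Egr1, Igkv17-127 and Gm24270 (0.44 to 0.50). Klhl31 also came first for S100a8, S100a9 and Retnlg (0.93, 1.03 and 0.54), with Ifi27l2a and Ighv14-3 next for S100a8, Ifitm6 and Mt2 for S100a9, and Ccn2 and Pcdh9 for Retnlg. For Elane they were Unc93a, Mag and Mmp11 (0.12 to 0.25), and for Mpo Gm18068, Gm21691 and Gm31305 (0.17 to 0.20). Among the members themselves the closest pairs were Mpo with Elane (0.44), Mpo with Csf3r (0.63), S100a8 with S100a9 (0.68) and Ngp with Camp (0.69), and the most distant was S100a9 with Lcn2 (1.71).

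**Figure D3:**
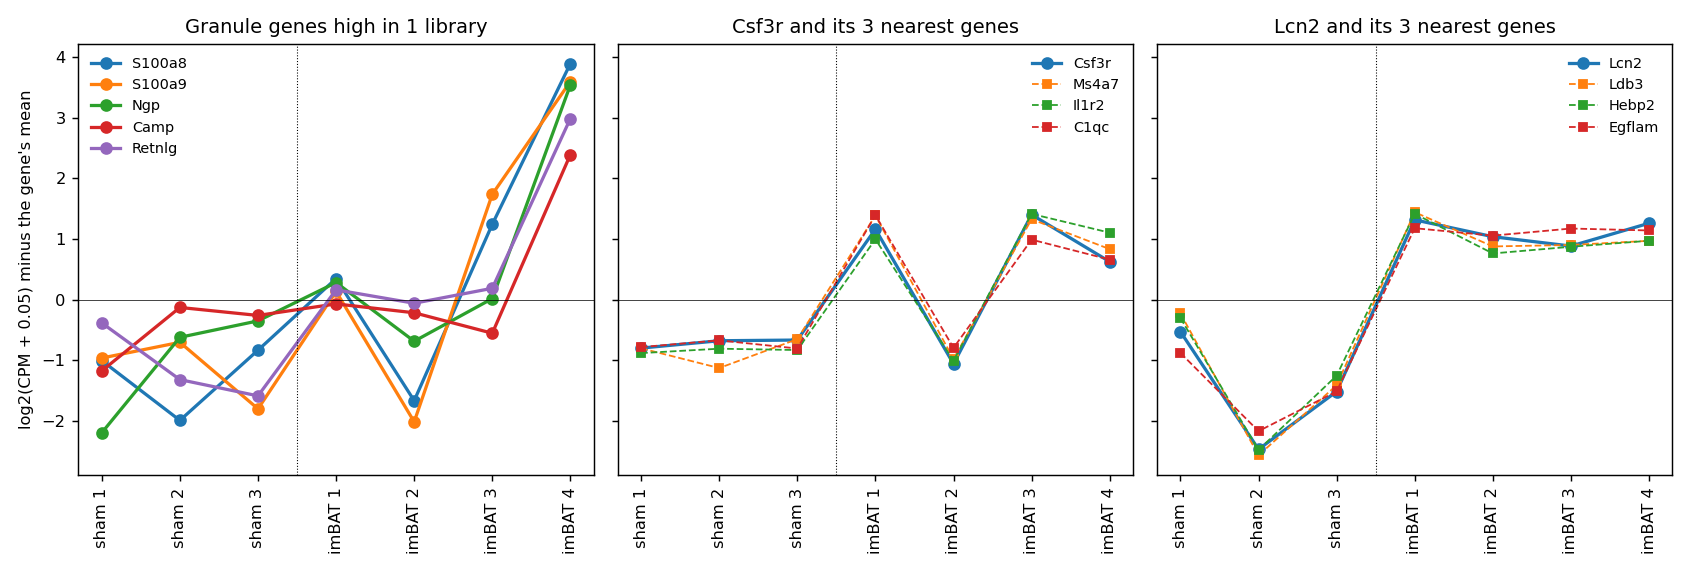
Log2(CPM + 0.05) minus the gene's own mean in each library (3 sham, then 4 imBAT, divided by a dotted line), for 5 granule genes (left), Csf3r with its 3 nearest genes (middle) and Lcn2 with its 3 nearest genes (right). The granule genes peak in imBAT replicate 4, Csf3r and its neighbours drop to the sham level in imBAT replicate 2, and Lcn2 and its neighbours are high in all 4 imBAT libraries.

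Since Ptprc fell, each gene was also read per 1000 counts of Ptprc, a scale of leukocyte RNA. S100a8 ran from 0.0883 to 0.224 per 1000 Ptprc counts in sham and stood at 1.64, 0.285, 6.25 and 19.2 in imBAT replicates 1 to 4. Csf3r ran from 4.16 to 4.46 in sham and stood at 44.1, 8.14, 104.1 and 29.1 in imBAT, so that no imBAT library lay in the sham range. The groups did not overlap, with imBAT higher, for 7 of the 9 genes with a count in every library. The same held for 81.0% of all genes with a count in every library, so the count is near the background. Each of the 7 had p = 0.057 in an exact two-sided permutation test, the smallest that 3 against 4 libraries allow (0.073 adjusted over the 9), and S100a9 and Elane had p = 0.114.

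**Figure D4:**
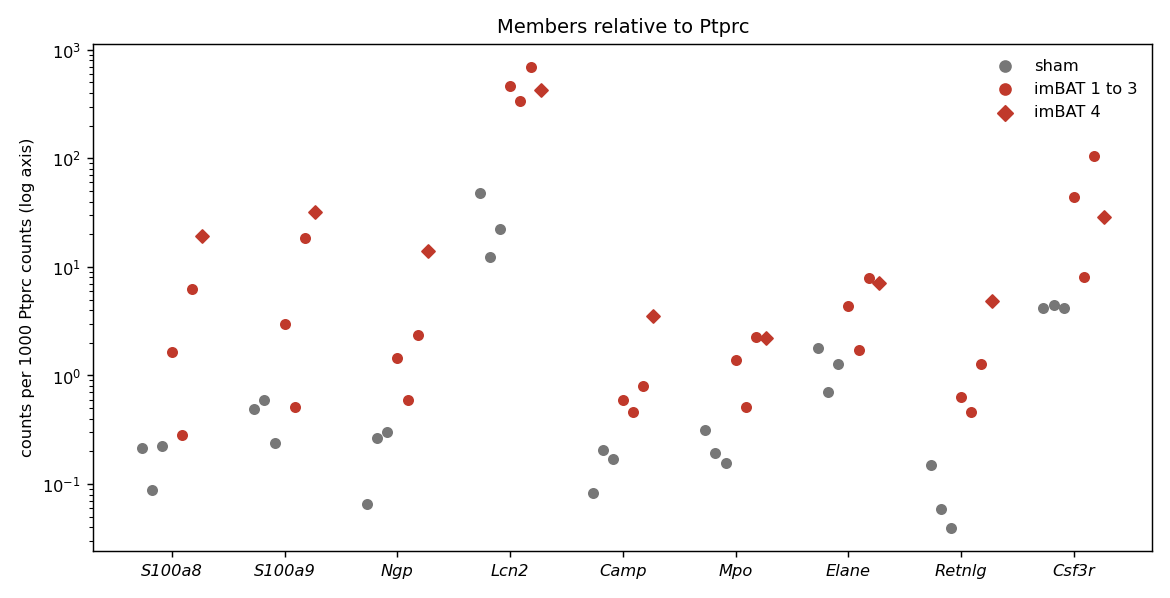
Counts of 9 genes per 1000 Ptprc counts in each library (log axis), with sham in grey, imBAT replicates 1 to 3 as red circles and imBAT replicate 4 as red diamonds. All but S100a9 and Elane have every imBAT library above every sham library.

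Other genes of the neutrophil program were read from lists of genes chosen by name. Beside each list stand all genes tested, of which 24.3% rose and 19.3% fell. Their numbers were 6081 and 4245 of 27521 without sham replicate 1, and 4495 and 3024 of 27300 without sham replicate 2. They were 4721 and 3074 of 27211 without sham replicate 3, and 5981 and 4397 of 42855 with no expression filter. Calls lost in those fits are thus not particular to the lists. Of 4 tested primary granule partners, 2 rose and 2 fell (median log2 fold change -0.04). Prtn3, the gene of proteinase 3 next to Elane in the genome, rose 4.57-fold, from 2.72 ± 1.12 CPM (n = 3) to 12.5 ± 9.4 CPM (n = 4), with its highest level, 25.6 CPM, in imBAT replicate 1. On the log2 scale this is 2.19 ± 0.60, or 1.57 when imBAT replicate 1 is dropped. The call did not hold without sham replicate 1 (edgeR adjusted p = 0.0564), without sham replicate 2 (0.0679) or with no expression filter (0.0759). Cd63, a granule membrane protein of many cells, rose 1.87-fold. The proteoglycan gene Srgn and the elastase inhibitor gene Serpinb1a fell 1.98-fold and 2.64-fold. Ctsg, the gene of another primary granule enzyme, had 2 to 21 counts per library and was not tested.

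Among 13 tested partners of the specific and gelatinase granules and the oxidase, 3 rose, 5 fell and 5 did not pass (median -0.33). Without sham replicate 2 or sham replicate 3 the numbers were 2 and 3 in each case. Hp, the haptoglobin gene, also made by adipocytes, rose 5.21-fold, and Mmp9, gelatinase B, rose 6.77-fold to 9.14 to 47.8 CPM. The integrin gene Itgam (CD11b) rose 3.60-fold with the same low imBAT replicate 2 as Csf3r (28.9, 4.64, 17.5 and 15.8 CPM), and its call was lost without any single sham library or imBAT replicate 3 (edgeR adjusted p up to 0.0636) and with no expression filter (0.0738). The oxidase genes Ncf1 and Ncf4 fell 1.81-fold and 1.60-fold. Ltf, lactoferrin, a specific granule protein that mammary epithelium also secretes, stood at 121.7, 33.6 and 63.4 CPM in sham and at 63.3, 183.3, 139.7 and 136.3 CPM in imBAT and did not pass (edgeR adjusted p = 0.164). It passed once sham replicate 1 was dropped, at 1.43 on the log2 scale (edgeR adjusted p = 0.0364). Mmp8, the neutrophil collagenase, too low to test, had 3 to 11 counts per sham library and 10, 1, 8 and 63 counts in imBAT. It shared with S100a8 and Ngp the high value in imBAT replicate 4.

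Of 17 tested surface and receptor partners, 5 rose, 6 fell and 6 did not pass (median 0.25), and without sham replicate 3 the numbers were 2 and 5, and with no expression filter 1 and 6. Cxcr2, the chemokine receptor of neutrophils, fell 2.10-fold, from 11.3 ± 2.5 to 5.37 ± 1.17 CPM, and was highest among imBAT libraries in replicate 4 (7.12 CPM). Selplg, the selectin ligand of leukocytes, fell 2.05-fold, and the shared cytokine receptor chains Csf2rb and Csf2rb2, which are near-identical copies and may share reads, fell 1.72-fold and 1.81-fold. Fpr1, the formyl peptide receptor, and Siglece, an inhibitory lectin, were chosen after their values were seen. Fpr1 had 3 to 11 counts per sham library and 1349, 4, 521 and 368 counts in imBAT, and Siglece stood at 0.906 to 1.34 CPM in sham and 26.6, 1.49, 16.8 and 12.4 CPM in imBAT. Both rose (edgeR adjusted p = 0.0117 and 0.00821), with the low imBAT replicate 2 of Csf3r, and neither was called with no expression filter (adjusted p = 0.0756 and 0.0504), nor Fpr1 by voom (0.203).

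Of 7 tested genes of the mature neutrophil cytosol, Wfdc17 (7.74-fold) and Acod1 rose and Mxd1 (from 83.2 ± 8.8 to 46.2 ± 4.1 CPM) and Asprv1 (2.64-fold) fell, with a median of 1.11; without imBAT replicate 2, 4 rose and 2 fell, Wfdc21 and Ifitm6 being added (edgeR adjusted p = 0.0172 and 0.0097). Acod1, the itaconate-forming enzyme of activated myeloid cells, rose by 3.63 on the log2 scale, a call lost without any single sham library or imBAT replicate 1 or 3 (edgeR adjusted p up to 0.0918), and with voom or no expression filter (0.0964 and 0.0966). Of 7 tested transcription factors, Cebpa and Cebpb, shared by adipocytes and granulocytes, rose 7.14-fold and 4.43-fold and Gfi1, a repressor needed for granulocyte formation, fell 2.26-fold (median 0.36), while DESeq2 and voom each called 3 higher and 2 lower. Cebpe, the factor of the specific granule stage, had few counts and was not tested: 0, 4 and 0 in sham libraries and 12, 6, 2 and 22 in imBAT libraries.

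Among 8 tested growth factors and chemoattractants, 3 rose and 2 fell (median 0.77); without sham replicate 2 or sham replicate 3 the numbers were 1 and 2. Csf3, the ligand of Csf3r, stood at 0.354, 0.301 and 0.641 CPM in sham and at 1.16, 2.99, 1.43 and 0.839 CPM in imBAT. It rose 3.71-fold, with its highest level in imBAT replicate 2 and its lowest imBAT level in replicate 4, the reverse of the order of S100a8 for those libraries, and dropping sham replicate 1 or sham replicate 2 ended the call (edgeR adjusted p = 0.0544 and 0.0661). The chemokine gene Cxcl1 rose 2.08-fold, from 0.967 ± 0.041 to 2.02 ± 0.53 CPM, a call lost without sham replicate 2 or 3 (adjusted p = 0.0552 and 0.0517). Cxcr4, the marrow retention receptor that lymphocytes also carry, fell 2.91-fold (not called with no expression filter, edgeR adjusted p = 0.0518), and Il17ra fell 1.84-fold. Il1b, at 1.57 ± 0.43 and 2.24 ± 1.50 CPM, did not pass (edgeR adjusted p = 0.459).

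Of 13 tested receptors and relatives of the member proteins, 7 rose, 5 fell and 1 did not pass (median 0.92); without sham replicate 1 or sham replicate 2 the numbers that rose and fell were 7 and 2. Slc22a17, a reported receptor for lipocalin 2, rose 2.46-fold from 12.8 ± 3.6 to 31.5 ± 4.5 CPM. Bsg, basigin, a receptor for S100a9, rose 2.58-fold. The S100 relatives S100a6, S100a11 and S100a1 rose 3.45-fold, 3.63-fold and 3.92-fold, with no single high library in imBAT.

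Markers of other granulocytes and blood cells were read in the same libraries, beside the 24.3% of all genes that rose and the 19.3% that fell. Of 7 eosinophil markers 2 were tested and neither passed in edgeR with all libraries, Il5ra having an unadjusted p of 0.026. Il5ra was called lower by edgeR with upper-quartile scaling (adjusted p = 0.0299) and without imBAT replicate 4 (0.0129), by DESeq2 (0.0202) and by voom (0.0156). Ear6 had no count in any library, and the eosinophil list summed to 4.08 to 5.66 CPM in sham and 1.65 to 3.89 CPM in imBAT. Of 6 tested mast cell and basophil markers 5 rose, with sums of 65.1 to 104.6 and 185.6 to 233.3 CPM. All 6 tested red blood cell genes rose, with sums of 112.4 to 219.6 and 364.7 to 789.1 CPM. In imBAT replicates 1 to 4 the red blood cell sums were 723.9, 364.7, 789.1 and 763.6 CPM. The part of blood RNA in the values of the neutrophil genes was not tested. All 5 pan-leukocyte, 10 T cell and 8 B cell markers fell. Of the other lists, 5 of 6 dendritic cell markers fell, 2 of 6 natural killer markers rose and 2 fell, 7 of 8 adipose progenitor markers rose, 4 of 6 endothelial markers rose and 1 fell, and 3 of 6 tested keratinocyte markers rose and 1 fell. Without sham replicate 3, the natural killer markers Klra8, Eomes and Prf1 were not called (edgeR adjusted p = 0.0539, 0.0578 and 0.0764), which left Gzma, and the dendritic cell markers Xcr1 and Clec9a were lost too. Prf1 and Clec9a were each also lost without sham replicate 1, sham replicate 2 or imBAT replicate 4, and Clec9a without imBAT replicate 1. With no expression filter the T cell markers Cd3e, Cd3d, Cd5 and Il7r were not called.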

How the data were processed

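RNA sequencing of inguinal white adipose tissue gave 7 libraries (3 sham, 4 imBAT), grouped by the treatment label and numbered in accession order. The deposited values are whole-number read counts per gene in a single table. The submitters' processing notes name STAR 2.7.9a, Salmon 1.5.2, featureCounts 2.0.3, Subread, limma and edgeR. Per the labels' protocols, STAR aligned to an Ensembl primary assembly; strand and multimapping settings are not given. Of 55774 rows, 287 repeats with identical counts were dropped. Coordinates and exon lengths came from GENCODE M21 (GRCm38), and promoters from RefSeq.

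Counts were tested with edgeR 4.0.16 in R 4.3.3 (quasi-likelihood test, TMM, robust dispersions, default filter with minimum count 10, model of group alone, 5 residual degrees of freedom). The SE is the log2 fold change divided by the square root of F. Alternatives were RLE and upper-quartile scaling, 2 other filters, DESeq2 1.42.0, voom in limma 3.58.1, a block on the number opening each title, each library left out, and a threshold of 0.10. Steps were tested on simulated data. Named genes are the 10 members, up to 4 called genes with the smallest p per list, genes fixed by name, and the 3 nearest in pattern per member; of the marker lists, counts are given. Fpr1, Siglece, Itgam, the monocyte markers that did not pass and the genes high in 1 library were chosen after their values were seen. The same holds for genes named only for a call gained or lost in another fit. Members and lists were chosen with earlier results of these data known. BC100530 of the cytosol list was not analysed here, and 1 gene that the naming rule picked is not reported here.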

Additional observations from a re-analysis of the deposited data

Results flagged for a closer look

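Values of the 4 imBAT libraries were checked for a single library far from the others (Dixon's criterion) in 22 genes, the 10 members and 12 genes fixed by name. Chance alone gives about 1 in 20 for normally distributed values. The check used CPM on a linear scale, and several genes had few counts. Skewed values of that kind can be flagged more often, so 1 in 20 is no firm yardstick here. In 7 genes a library stood apart, each time imBAT replicate 4 on the high side. These were S100a8 at 9.97 CPM, Ngp at 7.29 CPM, Camp at 1.85 CPM, Ly6g at 0.264 CPM, Retnlg at 2.52 CPM, Mmp8 at 1.51 CPM and Cxcr2 at 7.12 CPM. The genes share 1 library, so they are not 7 separate observations. Cxcr2 differs from the rest in that every sham library (8.47 to 12.9 CPM) lay above its value in imBAT replicate 4.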

How the results depend on the processing

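Lcn2 kept its direction and its call in all 14 other fits, with a log2 fold change of 2.07 to 3.05. Of 9 members tested 2 rose, beside 6407 of 26393 genes. With the same genes tested, the number of members was 4 with RLE scaling (6367 of all genes), 1 with upper-quartile scaling (4722) and 4 with voom (7361). It was 1 of 10 with no expression filter (5981 of 42855 genes) and 5 of 8 with DESeq2 (7028 of 26375). At an adjusted p under 0.10 it was 6 of 9 (7530 of 26393). The number of members ran from 1 to 7 when each library was left out, beside 4495 to 6447 of all genes. Over the 9 members and their other fits, 119 of 120 log2 fold changes were above 0. These are refits of the same genes in the same libraries and not separate observations. The exception was Elane, which ran from -0.038 without imBAT replicate 4 to 0.64 without sham replicate 1. Csf3r lost its call in 8 fits, and in 17 fits of other members a call was gained. DESeq2 gave no adjusted p for Ngp. The number of genes called, 11491, ran from 7519 to 11403 with a library left out (7519 without sham replicate 2). The count of partner genes called (47) and of members above sham per Ptprc count (7) stayed within 1.5 times under every alternative run for them. With the title number as a replicate block, 4 members rose (Lcn2, Csf3r, S100a9 and Ngp), and all genes called were 10853. The labels do not say whether the numbers pair the samples. Deviations of same-numbered libraries correlated at r = 0.10, 0.11 and -0.01 across genes, values too weak to decide on pairing. Sham replicates 1 and 2 correlated best with the imBAT library of their own number, and sham replicate 3 with another. With 3 to 40 counts per sham library, S100a8, S100a9, Ngp, Camp, Retnlg and Mpo are limited by depth, and Ly6g, with at most 2, more so.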
